A study of Homo sapiens with 6 samples.

Results

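Long intergenic non-coding RNA (lincRNA) genes that KNS42 cells express well were compared between control cells and cells depleted of the RNA-binding protein MSI1. The genes were chosen by their level: genes of the lincRNA biotype with a mean of at least 2 FPKM (fragments, here reads, scaled to gene length and to the reads of the library) over all 6 libraries. Of the 58174 genes listed, 7514 have this biotype, 4535 of those are at 0 in all libraries, and 199 reach the mean. 10 host genes of small nucleolar RNAs or microRNAs were left out by their symbols, among them SNHG19, SNHG8 and MIR22HG, so that 189 lincRNA genes remained. Their levels are therefore a description of the choice. The mean runs over both groups, so a gene low in one group could enter through the other: 21 of the 189 have a siC mean below 2 FPKM and 12 a siMSI1 mean below it.

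KNS42 is an established cell line from a pediatric glioblastoma. The cells were grown in serum-containing medium and transfected either with a control siRNA (siC, n = 3) or with a pool of siRNAs against MSI1 (siMSI1, n = 3). RNA was taken 72 h post-transfection and polyadenylated RNA was sequenced from strand-specific libraries. No other agent, genotype or clone differed between the groups by their labels, and all libraries derive from 1 cell line. The labels do not say whether the replicates are separate cultures, so p-values measure the spread between these libraries, which may be technical.

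LincRNAs are transcribed by RNA polymerase II, mostly spliced and polyadenylated like mRNAs, but hold no long open reading frame. Some act at nuclear bodies or as decoys for RNA-binding proteins, some arise from the start region of a neighboring gene as divergent transcripts, and many have no known role. Brain tissue and glioma cells are known for a rich set of them, and MSI1 is itself an RNA-binding protein, known for its neural stem cell expression and its preference for short motifs around UAG.

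The targeted gene was measured first. MSI1 stood at 63.7, 61.9 and 66.9 FPKM in siC 1 to 3 and at 12.1, 12.3 and 11.2 FPKM in siMSI1 1 to 3. The siMSI1 libraries held 18.5% of the siC mean, a log2 fold change of -2.43 ± 0.07 (SE) with an adjusted p of 8.71e-06. Here and below, the test is limma on log2(FPKM + 0.1) across 15069 genes with a mean of at least 0.5 FPKM, Benjamini-Hochberg adjusted over all of them, and a gene is said to have risen or fallen at an adjusted p of at most 0.01. Adding 0.1 understates the fold change of low genes.

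The identity of the cells was checked against marker genes. Of 8 glioma and neural stem cell markers, VIM (mean 950.3 FPKM), SOX2 (278.9), CD44 (73.3), NES (65.5), PDGFRA (22.5) and GFAP (3.12) passed the filter on low values, and S100B and OLIG2 were listed at 0. Of the 3 oligodendrocyte, 4 microglia and leukocyte and 3 endothelial markers, none reached the 0.5 FPKM of the filter, and MOG and AIF1 were at 0 in every library. Of 4 fibroblast genes, COL1A1 (2.76 FPKM) and COL1A2 (0.632 FPKM) were tested, were low and did not pass the test (adjusted p = 0.39 and 0.25). Of 4 neuron markers, SYP, a synaptic vesicle gene (10.9 FPKM), and MAP2 (6.6 FPKM) were tested. RBFOX3 was at 0 and SNAP25 at 0.21 FPKM. SYP fell (log2 fold change -0.53 ± 0.09, adjusted p = 0.0043), and MAP2 did not pass the test (-0.43 ± 0.11, adjusted p = 0.025). CD44 fell (-0.46 ± 0.07, adjusted p = 0.0030), and GFAP, the astrocyte intermediate filament, rose (1.46 ± 0.16, adjusted p = 0.00090). In bulk RNA, fewer cells that make a transcript and less of it per cell cannot be told apart.

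The lincRNA genes take a small share of these libraries. Reads on genes numbered 15018417, 18024080 and 14448513 in siC and 14379126, 13087025 and 14700593 in siMSI1, of which 47630, 61955 and 47931 reads in siC and 46473, 41878 and 41369 reads in siMSI1 fell on the 189 genes. That is 0.317%, 0.344% and 0.332% of the siC reads and 0.323%, 0.320% and 0.281% of the siMSI1 reads. The siMSI1 3 library was the lowest and siC 2 the highest, and the groups overlapped. Summed per gene length, the levels lay close together, at 1092, 1147 and 1135 FPKM in siC and 1118, 1160 and 1136 FPKM in siMSI1. Replicates differed unequally over all genes. The chi-square per degree of freedom was 9.83 and 11.2 between siMSI1 3 and the other siMSI1 libraries and 4.14 between those, and in siC it was 8.21 between siC 2 and siC 3 and 4.02 and 3.55 for the pairs with siC 1. On the second principal component siMSI1 2 (-33.97) and siMSI1 3 (34.75) lay at opposite ends, with siMSI1 1 at -0.94. The siC libraries had the same order by replicate number over a narrower range, with siC 2 at -15.39, siC 1 at 2.40 and siC 3 at 13.15. Among the 189 genes siMSI1 3 was the lowest of its group for 74 and the highest for 65.

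Levels among the lincRNA genes spanned 2.002 to 61.6 FPKM with a median of 3.75 FPKM, and 118 lay between 2 and 5, 44 between 5 and 10, and 27 at 10 or more. The reads behind a gene ranged from 4.67 to 6156 per library (mean), with a median of 88.2. The 5 genes with the highest mean FPKM took 32.0% of all reads on the 189. Gene lengths ran from 110 to 22767 bases (median 1188). 124 of the genes carry only a clone-based name in the table, and 176 were found by identifier in GENCODE 44, 13 were not. Among the 176, AC005332.7 and AC073107.1 are typed as transcribed pseudogenes in GENCODE 44 and stay in the counts below. Just inside the threshold lay AC060766.4 (mean 2.002 FPKM) and AC004158.1 (2.04 FPKM), and just outside AC005224.4 (1.995 FPKM) and AC012360.3 (1.99 FPKM).

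Upon MSI1 knockdown, 30 of the 189 lincRNA genes passed the test (15.9%), 15 lower and 15 higher in siMSI1. The count and the split depended on which library was left out. Without siC 1, 15 genes passed (5 lower and 10 higher), and without siC 3, 18 passed (7 lower and 11 higher), whereas without siMSI1 2 it was 23 (12 lower and 11 higher) and without siMSI1 3 it was 30 (14 lower and 16 higher). The background was 11.0% of all tested genes, of which 5.83% fell and 5.15% rose (14.9% of the 9438 protein-coding genes with a mean of at least 2 FPKM, which reach far higher levels than the lincRNA genes). By level, 11.0% of the lincRNA genes and 11.4% of the protein-coding genes at 2 to 5 FPKM passed. At 5 to 10 FPKM it was 11 of 44 lincRNA genes and 13.7% of the protein-coding genes, and at 10 FPKM or more 22.2% and 17.2%, differences that carry no test. Of the 30 calls, 7 are genes that entered with one group's mean below 2 FPKM. Those that rose are AP003774.1, AL445434.1, DLX2-AS1, AC004158.1 and AL731533.2, and those that fell are AC068057.1 and AL162411.1. The other 23 are among the 156 genes with both means at 2 FPKM or more (14.7%, 13 lower and 10 higher). The groups of libraries did not overlap for 79 of the 189 (41.8%), beside 42.8% of all tested genes. Among 436 lincRNA genes at 0.5 to 2 FPKM, 1.61% passed the test. All 189 passed the filter on low values, because their choice asked for a higher mean.

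The changes went in both directions, and the median over the whole lay near 0, although classes by position and by reads leaned in different directions (below). The median log2 fold change was 0.02 over the 189 lincRNA genes and 0.00 over all tested genes, with 89 of the 189 below 0 and 100 above. Without siC 3 the median of the 189 was 0.09. The median size of the log2 fold change was 0.31, against 0.24 over all genes, 0.20 over protein-coding genes of at least 2 FPKM and 0.41 over lincRNA genes at 0.5 to 2 FPKM. The errors had the same order, with a median SE of 0.16 against 0.12, 0.09 and 0.32. Log2 fold changes ran from -1.79 to 2.17, and 16 genes differed by 2-fold or more, of which 13 passed the test. The plot of level against change shows that the genes past the threshold cover the range of levels, with 13 of the 118 genes between 2 and 5 FPKM, 11 of 44 between 5 and 10, and 6 of 27 above.

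**Figure D1:**
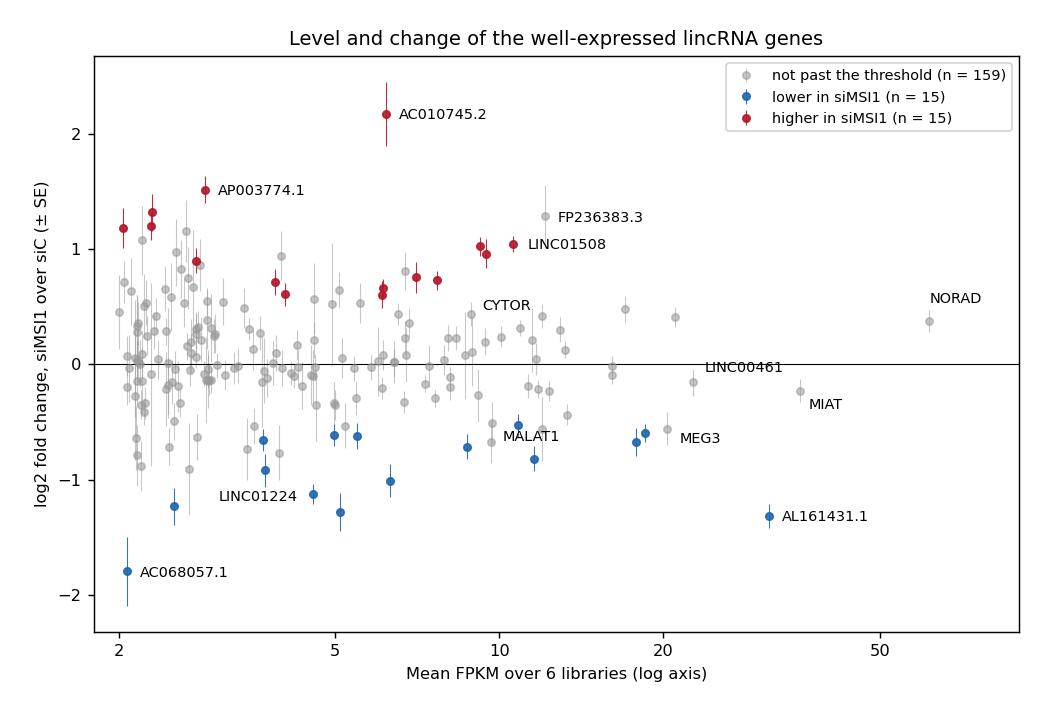
Log2 fold change of siMSI1 over siC (vertical axis, ± SE of the limma fit) against the mean FPKM over the 6 libraries (horizontal log axis) for the 189 lincRNA genes. Gray points did not pass an adjusted p of 0.01, blue points (15) were lower and red points (15) higher in siMSI1. NORAD, the most abundant, lies among the gray points, and AL161431.1 at a mean of 31.3 FPKM is the most abundant one that fell.

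AL161431.1 (ENSG00000275216, named LINC03061 in GENCODE 44) was the third most abundant lincRNA and the one with the most reads among those that fell. It is a gene of 2 exons on the plus strand of chr13:109269634-109278512 (GRCh38) and overlaps no protein-coding gene. Its level was 45.9, 46.2 and 41.6 FPKM in siC and 18.4, 15.5 and 19.9 FPKM in siMSI1. Each siMSI1 library was below each siC library by a wide gap, and the mean fell from 44.6 ± 2.57 to 17.9 ± 2.23 FPKM (SD, n = 3), a log2 fold change of -1.31 ± 0.10 (SE, adjusted p = 0.00030). The nearest protein-coding start is that of IRS2, an adaptor of insulin signaling, at 517 kb, with a log2 fold change of -0.18 ± 0.06 (adjusted p = 0.067).

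LINC01224 (ENSG00000269416) is a gene of up to 8 exons on the minus strand of chr19:23399097-23416075, beside the zinc finger gene ZNF91. It read 5.95, 6.36 and 6.47 FPKM in siC and 2.84, 2.99 and 2.64 FPKM in siMSI1, from 294, 379 and 307 reads and 138, 129 and 125 reads. The libraries of a group lay close together and the groups far apart (log2 fold change -1.12 ± 0.09, adjusted p = 0.00037). ZNF91 itself differed by 0.18 ± 0.15 on the same scale (adjusted p = 0.43).

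The largest fall by fold change was that of AC068057.1 (ENSG00000228528), 151 kb from the start of POU3F3, a neural transcription factor. It read 3.67, 3.27 and 2.75 FPKM in siC and 0.957, 1.29 and 0.491 FPKM in siMSI1. The groups did not overlap, but the siMSI1 values rest on 10, 12 and 5 reads, and siMSI1 3 was the lowest. The log2 fold change was -1.79 ± 0.30 (adjusted p = 0.0049), and POU3F3 had 0.15 ± 0.06 (adjusted p = 0.12). The call did not hold without siC 1, siC 2, siC 3 or siMSI1 1, each left out in turn, where the adjusted p reached 0.024.

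HPAT5 (AL353747.4 in the table), named for its transcripts in pluripotent cells, lies at chr6:167228200-167237517. It went from 6.17, 7.46 and 8.12 FPKM in siC to 2.48, 2.71 and 3.68 FPKM in siMSI1. Its groups were clearly separated (log2 fold change -1.28 ± 0.16, adjusted p = 0.0017). LINC01963, a gene of 1 exon, went from 8.57, 9.22 and 7.49 FPKM to 4.46, 4.73 and 3.32 FPKM (log2 fold change -1.01 ± 0.15, adjusted p = 0.0027). The siMSI1 3 library was again the lowest. Without siC 1 or siC 2 the adjusted p of LINC01963 was 0.015 and 0.011.

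Further lincRNA genes that fell were AL162411.1 (log2 fold change -1.23), AL035461.2 (-0.92), AP000357.2 (-0.82), BAIAP2-AS1 (-0.71), LINC02001 (-0.67), NUP50-AS1 (-0.66) and GLIDR (-0.62), with adjusted p from 0.0017 to 0.0071. AP000357.2 lost its call without siC 1 (adjusted p = 0.012), AL035461.2 without siC 2, siC 3, siMSI1 1 or siMSI1 2 (up to 0.018) and GLIDR without any single library but siMSI1 2 (up to 0.024). AL035461.2 also lost its call with limma voom on the reads recovered from the FPKM values, and GLIDR in a fit with the replicate number as a block. GLIDR was named for its lower level in glioblastoma, and LINC02001 is listed as SNHG30 in GENCODE 44 and hosts the small nucleolar RNA SNORD7. LINC02001 read 21.3, 20.03 and 24.4 FPKM in siC and 11.5, 15.3 and 14.5 FPKM in siMSI1. The groups did not overlap. Its call was the least stable among these, since it was lost without any one of the 6 libraries (adjusted p up to 0.027). The remaining 3 that fell were AL512625.1 (-0.61, listed as FAM88B), AC005332.9 (-0.60) and SOX21-AS1 (-0.53). AL512625.1 and SOX21-AS1 lost their calls without any one of the siC libraries or siMSI1 1, and AL512625.1 also without siMSI1 2 (adjusted p up to 0.018 and 0.030). AC005332.9 was abundant, with 23.97, 22.5 and 20.5 FPKM in siC and 14.1, 14.6 and 15.4 FPKM in siMSI1, and its groups were well separated (adjusted p = 0.0018), although without siC 1 the adjusted p was 0.012.

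The largest rise was that of AC010745.2 (ENSG00000228876), a gene of 4 exons on the plus strand of chr2:16224047-16333978. It read 3.26, 1.52 and 1.99 FPKM in siC and 9.38, 12.5 and 8.63 FPKM in siMSI1, from 41, 23 and 24 reads and 116, 137 and 104 reads. All siMSI1 libraries stood well above all siC libraries, and siC 1 was the highest of its group. The mean rose to 450.3% of siC, a log2 fold change of 2.17 ± 0.27 (adjusted p = 0.0024, and 0.014 without siC 3). The next protein-coding start is that of MYCN, a MYC family transcription factor, at 283 kb on the same strand. MYCN rose from 76.0, 78.1 and 80.6 FPKM to 123.0, 119.5 and 118.4 FPKM, a log2 fold change of 0.62 ± 0.06 (adjusted p = 0.00055).

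AP003774.1 (LINC02724 in GENCODE 44) lies at chr11:64449074-64451657. It rose from 1.34, 1.39 and 1.604 FPKM to 3.97, 4.43 and 4.55 FPKM, and the groups did not overlap (log2 fold change 1.52 ± 0.12, adjusted p = 0.00033). AL445434.1 (LINC02525, chr6:3182626-3195784) rose from 1.02, 1.43 and 1.39 FPKM to 3.74, 2.99 and 3.24 FPKM, again without overlap (1.32 ± 0.16, adjusted p = 0.0014). The nearest protein-coding starts are 89.9 kb (RPS6KA4) and 35.6 kb (PSMG4) away, and the siC values rest on 47, 59 and 54 reads and on 23, 39 and 30 reads.

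LINC01508 (ENSG00000231107) was the lincRNA with the smallest error among those that rose. Its gene spans chr9:90300885-90433566 on the minus strand, with up to 5 exons. It read 6.73, 6.99 and 6.92 FPKM in siC and 13.93, 15.05 and 13.95 FPKM in siMSI1. The groups lay far apart, with an SD of 0.136 FPKM in siC and 0.637 FPKM in siMSI1 (n = 3). The siMSI1 mean was 208.0% of the siC mean, and the log2 fold change was 1.05 ± 0.07 (adjusted p = 0.00024). AP000808.1 (LINC02701), 26.3 kb from the start of CPT1A, the enzyme that admits fatty acids to mitochondria, rose alike, from 6.28, 6.39 and 5.49 FPKM to 12.9, 12.2 and 12.1 FPKM (1.03 ± 0.08, adjusted p = 0.00037). CPT1A had a log2 fold change of -0.32 ± 0.07 that missed the threshold (adjusted p = 0.014).

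The other genes that rose were DLX2-AS1 (1.20), AC004158.1 (1.18), AC061992.1 (0.96), AL731533.2 (0.90), CH17.340M24.3 (0.76), SCAMP1-AS1 (0.73), EPB41L4A-AS1 (0.71), LINC00839 (0.66), OLMALINC (0.61) and LINC02134 (0.61). OLMALINC was named for oligodendrocyte maturation. It read 3.35, 2.97 and 3.22 FPKM in siC and 4.52, 5.11 and 5.05 FPKM in siMSI1, with no overlap (adjusted p = 0.0041). LINC00839 read 4.80, 4.87 and 4.46 FPKM in siC and 7.63, 7.18 and 7.72 FPKM in siMSI1. It was tight within both groups (adjusted p = 0.0013). LINC02134 is the weakest of them, with an adjusted p of 0.0091 that was lost without any single library but siMSI1 3 (up to 0.036). Its call was also lost with libraries centred on their medians, with quantile normalization and with limma voom on the reads recovered from the FPKM values. It held in 5 of 15 alternative fits. AC004158.1 lost its call without siC 1, siC 3, siMSI1 1 or siMSI1 2 (adjusted p up to 0.014), and OLMALINC without any single library but siMSI1 3 (up to 0.018).

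**Figure D2:**
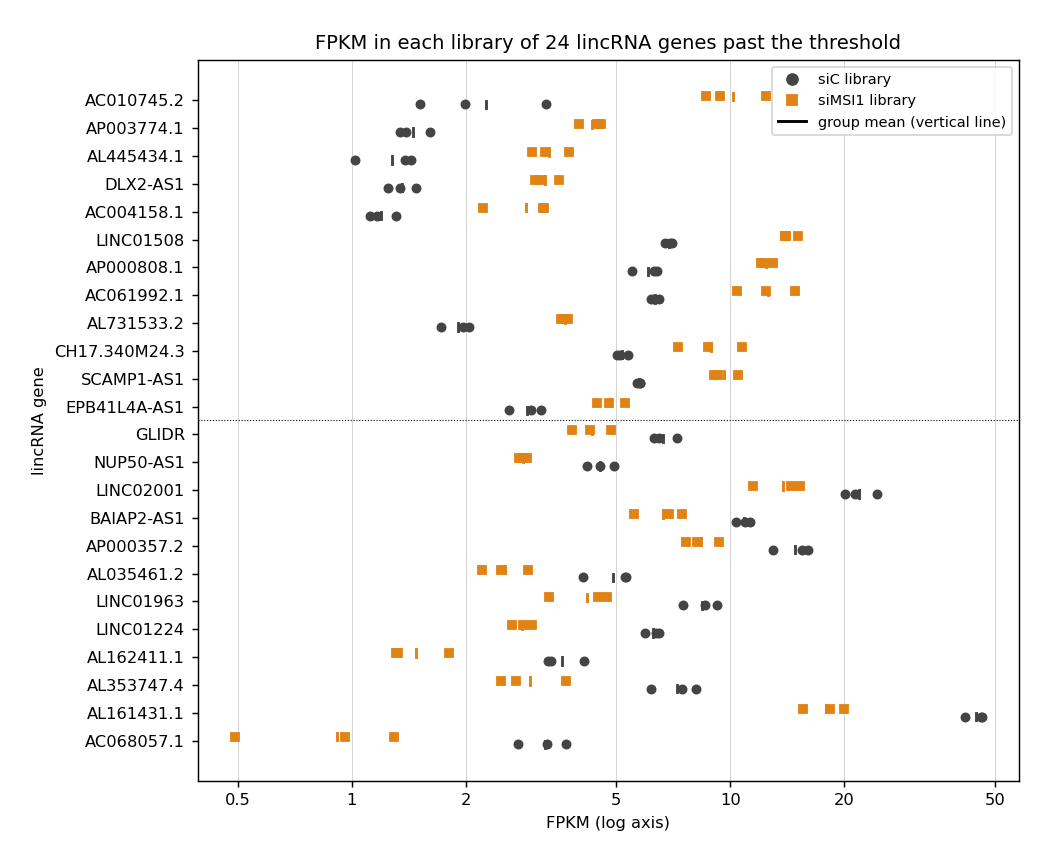
FPKM (horizontal log axis) of 24 lincRNA genes past the threshold, the 12 with the largest rise above the dotted line and the 12 with the largest fall below it. Each dark circle is a siC library, each orange square a siMSI1 library and each short vertical line a group mean (n = 3), and in every gene shown the groups do not overlap, which is part of how these 24 were chosen.

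Sequences of the start regions are shown for LINC01224 and LINC01508, the gene that fell and the gene that rose with the smallest errors and with a RefSeq promoter entry. They run from 250 bases before to 50 after the RefSeq start (RefSeq, GRCh38.p14), at chr19:23416025-23416324 (minus strand) and chr9:90433440-90433739 (minus strand), 5′ to 3′. Capitals mark matches on either strand to 6 motifs that were searched: the TATA box (TATAAA), the CCAAT box (CCAAT), the GC box (GGGCGG), the E-box (CACGTG), the AP-1 motif (TGANTCA) and the E2F motif (TTTGGCGC), none of which contains another. A match is a description and not a site.
LINC01224: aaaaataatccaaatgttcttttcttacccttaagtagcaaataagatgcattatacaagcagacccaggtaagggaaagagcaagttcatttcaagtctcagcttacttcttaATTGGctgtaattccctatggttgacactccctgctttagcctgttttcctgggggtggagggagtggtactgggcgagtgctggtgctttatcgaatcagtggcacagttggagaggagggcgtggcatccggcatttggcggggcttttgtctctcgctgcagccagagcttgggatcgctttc
LINC01508: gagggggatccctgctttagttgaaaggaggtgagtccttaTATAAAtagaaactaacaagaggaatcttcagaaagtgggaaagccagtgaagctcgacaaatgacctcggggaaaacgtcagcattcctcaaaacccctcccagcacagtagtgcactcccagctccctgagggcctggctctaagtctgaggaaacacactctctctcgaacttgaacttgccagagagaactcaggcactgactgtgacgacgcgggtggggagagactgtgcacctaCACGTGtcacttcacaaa

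The RefSeq table held a start region for 81 of the 189 lincRNA genes, 7 of the 15 that fell and 11 of the 15 that rose. CCAAT, the letters of a common promoter element, is described first because its counts, once seen, differed most between the genes that fell and those that rose. It stood on either strand in all 7 of those that fell, in 3 of the 11 that rose (27.3%) and in 27 of the 63 that did not pass the test (42.9%). The share was 45.7% of the 81 and 34.6% of all 35116 start regions of the same length. The other letters were found in the 81 and in all start regions at 12.3% and 11.5% (TATAAA), 53.1% and 44.95% (GGGCGG), 9.88% and 7.26% (CACGTG), 7.41% and 7.71% (TGANTCA) and 2.47% and 0.652% (TTTGGCGC). In the 7 that fell and the 11 that rose they were found in 2 and 2 (TATAAA), 4 and 3 (GGGCGG), 2 and 1 (CACGTG), 1 and 2 (TGANTCA) and 0 and 0 (TTTGGCGC). These counts are small and carry no test. The first CCAAT of each of the 6 other genes that fell is shown in 30 bases with the match in capitals (ATTGG where it lies on the other strand), from SNHG30 at chr17:35567998-35568027 (plus strand), SOX21-AS1 at chr13:94712736-94712765 (plus), BAIAP2-DT at chr17:81034883-81034912 (minus), HPAT5 at chr6:167228176-167228205 (plus), FAM88B at chr9:62897262-62897291 (plus) and NUP50-DT at chr22:45163969-45163998 (minus). The RefSeq start of SOX21-AS1 (base 94712716 of chr13) differs from the GENCODE start (base 94703454), from which its class by position below was taken. The GENCODE start lies 9091 bases from the start of SOX21 on the other strand, whereas the RefSeq start lies within 1 kb of it. By the RefSeq start SOX21-AS1 would be head to head with SOX21, but below it is counted as not head to head. In the other genes shown the RefSeq and GENCODE starts differ as well, by fewer bases.
SNHG30: cctcggccttcgATTGGctgctcctcccac
SOX21-AS1: gtgcgccgatgggaaacccCCAATcggctg
BAIAP2-DT: ctccaggcagcgATTGGtctgcggcggcgt
HPAT5: tggaaaatgttaATTGGgttccccaggcag
FAM88B: ttctgacagcatCCAATctaaagtcttcac
NUP50-DT: ctacccccaaaaCCAATtcgaaaaaaaggg

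LincRNA genes with a known role were taken from lists of symbols, and the calls in each list stand beside the 11.0% of all tested genes. NORAD (ENSG00000260032), a transcript induced by DNA damage that binds the PUMILIO proteins and is known for its part in genome stability, was the most abundant. It lies on the minus strand of chr20:36045618-36051018 and has 1 exon. It read 54.6, 58.4 and 47.7 FPKM in siC and 68.8, 76.3 and 63.7 FPKM in siMSI1. Every siMSI1 library was above every siC library. The log2 fold change of 0.38 ± 0.10 still missed the threshold (adjusted p = 0.027), which it passed in 2 of 15 alternative fits. OIP5-AS1, the other tested gene listed with it and of another biotype, did not pass either (-0.40 ± 0.10, adjusted p = 0.020). What sets its sequence apart is the repeated PUMILIO element: TGTANATA occurred 15 times on the sense strand of its GENCODE 44 transcript, at most 6 times in any other of the 176 lincRNA genes with a transcript, and at all in 29 of them. This search was chosen after the levels were seen. 10 of the 15 matches read TGTATATA, 4 TGTAAATA and 1 TGTACATA. A match of the first kind at chr20:36050182-36050211, one of the second at chr20:36049702-36049731 and one in the middle of the transcript at chr20:36047971-36048000 are shown in 30 bases each, with the element in capitals (minus strand, GRCh38).
NORAD-1: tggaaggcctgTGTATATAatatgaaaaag
NORAD-3: aaatcacatttTGTAAATAcctttttgtta
NORAD-11: caaccctactgTGTATATAgcggacaaact

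AL390115.1, the last of the 5 most abundant, lies at chr1:166165852-166340900 (plus strand) and overlaps the protein-coding gene FAM78B on the opposite strand. It read 16.3, 18.6 and 19.4 FPKM in siC and 22.6, 24.2 and 25.4 FPKM in siMSI1. These levels come from 103, 142 and 118 reads and 141, 134 and 154 reads on a gene length of 423 bases, so its rank by FPKM is not one by reads. As with NORAD, the groups did not overlap and the log2 fold change of 0.41 ± 0.09 missed the threshold (adjusted p = 0.012). AL390115.1 passed in 3 of 15 alternative fits. FAM78B stood at 0.99 ± 0.08 (adjusted p = 0.00039), and its part in the value of AL390115.1 was not tested.

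Among the nuclear scaffold RNAs, 3 of 5 listed genes were tested and none passed, beside the 11.0% of all tested genes. A list this short cannot be told apart from that share. NEAT1, the core of paraspeckles, read 5.00, 6.39 and 7.74 FPKM in siC and 7.11, 7.11 and 5.14 FPKM in siMSI1, and the groups overlapped (log2 fold change 0.02 ± 0.18, adjusted p = 0.94). MALAT1, a speckle RNA, read 9.53, 12.6 and 11.9 FPKM in siC and 9.65, 8.39 and 6.09 FPKM in siMSI1. The groups overlapped by a small margin, and siMSI1 3 was the lowest (-0.51 ± 0.18, adjusted p = 0.075). TUG1, of the antisense biotype and so outside the 189, had a log2 fold change of 0.03 ± 0.08.

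The imprinted DLK1-MEG3 domain of chr14 contributed MEG3 and MEG9, non-coding RNAs made from the maternal allele. MEG3 read 22.3, 24.95 and 25.05 FPKM in siC and 19.96, 16.6 and 13.1 FPKM in siMSI1. The groups did not overlap, with siMSI1 3 again the lowest, and the log2 fold change of -0.56 ± 0.14 missed the threshold (adjusted p = 0.026). MEG3 passed in 1 of 15 alternative fits, limma voom on the reads recovered from the FPKM values (adjusted p = 0.0034). MEG9 read 2.22, 3.03 and 2.90 FPKM in siC and 3.11, 2.43 and 1.71 FPKM in siMSI1, with wide overlap (-0.19 ± 0.22, adjusted p = 0.57). MEG8, below the level asked for, had -0.74 ± 0.25 (adjusted p = 0.064). None of the 3 tested imprinted genes passed (11.0% of all tested genes).

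Of the neural and glial lncRNA list, 15 symbols for 14 genes, 9 genes were tested. 1 of them fell, beside 5.83% of all tested genes: SOX2-OT, which is of another biotype (log2 fold change -0.69 ± 0.11, adjusted p = 0.0035). The 4 that belong to the 189 did not pass. MIAT, a nuclear RNA of neurons and neural progenitors, read 35.4, 40.0 and 39.6 FPKM in siC and 36.0, 33.7 and 28.8 FPKM in siMSI1. The siMSI1 2 and siMSI1 3 libraries lay below the siC range and siMSI1 1 within it (-0.23 ± 0.10, adjusted p = 0.13). LINC00461, which holds the microRNA gene MIR9-2, read 23.2, 26.3 and 22.2 FPKM in siC and 21.9, 24.3 and 18.4 FPKM in siMSI1, with overlap (-0.16 ± 0.11, adjusted p = 0.36). LINC01551 had -0.21 ± 0.08 (adjusted p = 0.079), and CRNDE had -0.10 ± 0.10 (adjusted p = 0.53).

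Of 10 symbols listed as linked to p53, 7 genes were in the table, 3 were tested and none passed (11.0% of all tested genes). TP53TG1, a p53-induced transcript, read 12.5, 10.7 and 11.4 FPKM in siC and 13.1, 13.2 and 16.6 FPKM in siMSI1, with no overlap and siMSI1 3 the highest (log2 fold change 0.30 ± 0.11, adjusted p = 0.081). Of 22 symbols listed as tumor-associated, 10 genes were tested and 1 rose, EPB41L4A-AS1, a share near the 11.0% of all tested genes. It read 2.59, 3.16 and 2.97 FPKM in siC and 4.79, 5.27 and 4.44 FPKM in siMSI1. The groups did not overlap (0.71 ± 0.11, adjusted p = 0.0039, lost without siC 1, siC 3, siMSI1 1 or siMSI1 2 with values up to 0.019). CYTOR, named as a cytoskeleton regulator, read 7.61, 7.39 and 7.502 FPKM in siC and 8.77, 11.3 and 10.7 FPKM in siMSI1 and missed the threshold (0.44 ± 0.10, adjusted p = 0.018), as did LINC00511 (0.32 ± 0.07, adjusted p = 0.017). In both, all siMSI1 libraries were above all siC libraries. CYTOR passed in 2 of 15 alternative fits and LINC00511 in 1 of 15.

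Where a lincRNA gene lies in relation to protein-coding genes was taken from GENCODE 44. Of the 176 genes with a position, 54 start within 1 kb of a protein-coding start on the opposite strand, in a head-to-head arrangement, with 10 to 860 bases between the starts (median 268). 8 of these 54 passed the test (14.8%), 3 lower and 5 higher. Over the 54 the median log2 fold change was 0.17, with 19 genes below 0 and 35 above. Over the 122 not head to head it was -0.02, with 65 below 0 and 57 above. 57 overlap a protein-coding gene, 17 of them on the same strand, and 4 of the 57 passed (7.02%). Of the 85 with neither arrangement, 18 passed (21.2%), 9 in each direction, and of the 54 that lie more than 50 kb from any protein-coding start, 14 passed (25.9%), 7 in each direction. These shares stand beside the 11.0% of all tested genes, and the differences between the classes carry no test. By exons, 26 of the 122 genes with 2 or more passed (21.3%) and 4 of the 54 with 1 exon (7.41%). The reads behind the genes differed as well: 19 of the 87 genes with at least 100 reads per library passed and 11 of the 102 with fewer. The 19 were 11 lower and 8 higher, and the 11 were 4 lower and 7 higher. Of the 87 genes, 52 log2 fold changes lay below 0 and 35 above, and of the 102, 37 lay below and 65 above. The part of read depth in the class shares and directions was not tested.

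**Figure D3:**
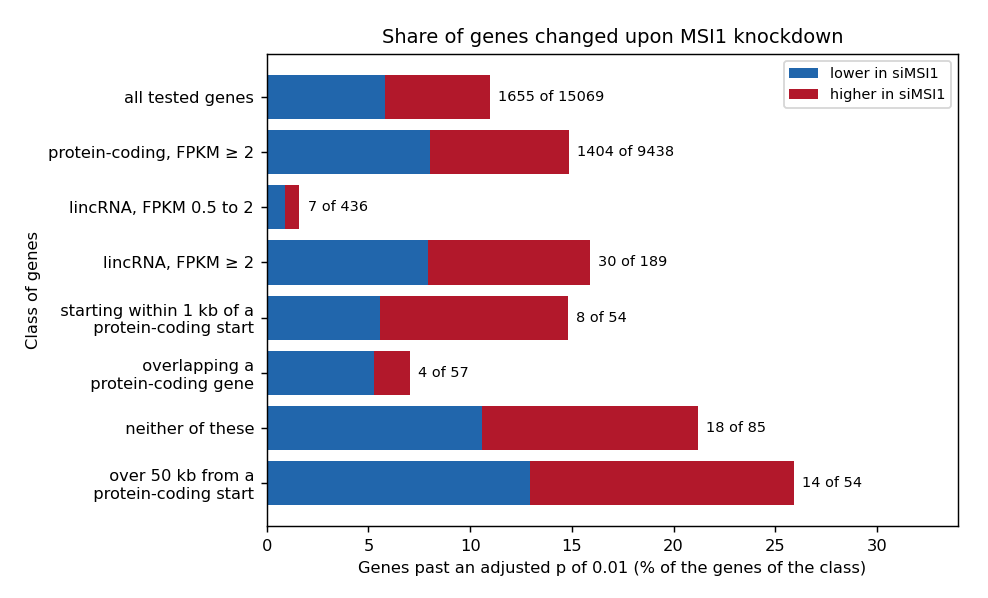
Share of genes past an adjusted p of 0.01 in each class (horizontal axis, % of the class), split into lower (blue) and higher (red) in siMSI1, with the counts beside each bar. The upper 4 bars are classes of the whole table and the lower 4 are classes of the well-expressed lincRNA genes by position, which share genes with each other, from 4 of 57 among those that overlap a protein-coding gene to 14 of 54 among those far from one.

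The head-to-head lincRNA genes were set beside the genes they start next to. The neighbor was tested in 52 of the 54 pairs, and in 28 of these 52 both log2 fold changes had the same sign. The sizes differed, with a median of 0.30 for the lincRNA and 0.18 for its neighbor, and across the 52 pairs, which are not independent replicates and share the 6 libraries, Pearson's r was 0.12. In 40 pairs neither gene passed the test, in 4 pairs only the protein-coding gene (SUV39H2, VDAC1, SF1 and RPP40), in 6 only the lincRNA and in 2 both.

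DLX2-AS1, listed as DLX2-DT in GENCODE 44 (chr2:172103006-172109982, plus strand), starts 106 bases from DLX2, a homeobox factor of forebrain interneurons. It rose from 1.48, 1.34 and 1.24 FPKM in siC to 3.14, 3.05 and 3.52 FPKM in siMSI1 (log2 fold change 1.20 ± 0.12, adjusted p = 0.00072). DLX2 went the other way and fell from 39.2, 36.5 and 36.5 FPKM to 28.1, 25.1 and 27.7 FPKM (-0.47 ± 0.07, adjusted p = 0.0031). In neither gene did the groups overlap. The log2 ratio of lincRNA to neighbor was -4.69 ± 0.07 in siC and -3.02 ± 0.09 in siMSI1 (SD, n = 3), a difference of 1.67 that is given as a description, because the pair was singled out for its opposite calls. The reads of DLX2-AS1 were few, 17 to 23 per siC library and 38 to 48 per siMSI1 library.

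CH17.340M24.3, listed as ATP6AP1-DT (chrX:154424378-154428526, minus strand), was the pair in which both genes rose. It starts 107 bases from ATP6AP1, an accessory subunit of the vacuolar proton pump. The lincRNA read 5.02, 5.36 and 5.11 FPKM in siC and 8.74, 7.27 and 10.7 FPKM in siMSI1 (log2 fold change 0.76 ± 0.13, adjusted p = 0.0064), and ATP6AP1 34.4, 31.1 and 35.4 FPKM in siC and 51.5, 51.3 and 58.4 FPKM in siMSI1 (0.67 ± 0.08, adjusted p = 0.0013). The ratio of the pair differed by 0.08 on the log2 scale, with overlap between the groups. The call of the lincRNA did not hold without siC 1, siC 2, siC 3 or siMSI1 1 (adjusted p up to 0.028). It was also lost with limma voom on the reads recovered from the FPKM values.

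AC061992.1, listed as SOCS3-DT, starts 299 bases from SOCS3, the feedback inhibitor of cytokine receptor signaling. It read 6.29, 6.19 and 6.49 FPKM in siC and 10.4, 12.5 and 14.8 FPKM in siMSI1 (log2 fold change 0.96 ± 0.12, adjusted p = 0.0016). SOCS3 read 26.1, 25.6 and 29.9 FPKM in siC and 33.97, 34.6 and 44.1 FPKM in siMSI1 and missed the threshold (0.46 ± 0.11, adjusted p = 0.024). In both genes siMSI1 3 was the highest and the groups did not overlap, and their log2 ratio differed by 0.51.

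In the other 5 pairs with a lincRNA past the threshold the neighbor did not pass. SCAMP1-AS1, beside the secretory membrane protein gene SCAMP1, rose from 5.77, 5.68 and 5.78 FPKM to 9.28, 10.5 and 9.05 FPKM, with siC values that were almost equal (0.73 ± 0.08, adjusted p = 0.00098), while SCAMP1 had -0.08 ± 0.11 (adjusted p = 0.64). AL731533.2, listed as PFKP-DT and beside the glycolytic enzyme gene PFKP, rose from 1.96, 1.72 and 2.04 FPKM to 3.64, 3.56 and 3.73 FPKM (0.90 ± 0.11), and PFKP had 0.17 ± 0.08 (adjusted p = 0.19). The reads of AL731533.2 were 17 or 18 in siC and 27 to 31 in siMSI1, and limma voom on the reads recovered from the FPKM values gave an adjusted p of 0.022.

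BAIAP2-AS1 (BAIAP2-DT), beside the actin regulator gene BAIAP2, fell from 10.9, 10.3 and 11.3 FPKM to 5.57, 7.43 and 6.87 FPKM (-0.71 ± 0.11, adjusted p = 0.0039, up to 0.020 without one of the siC libraries), and BAIAP2 had 0.06 ± 0.10 (adjusted p = 0.68). NUP50-AS1 (NUP50-DT), beside the nucleoporin gene NUP50, fell from 4.51, 4.18 and 4.91 FPKM to 2.91, 2.76 and 2.83 FPKM (-0.66 ± 0.10, adjusted p = 0.0030, lost without siC 1, siC 3, siMSI1 1 or siMSI1 2 with values up to 0.019), and NUP50 had -0.25 ± 0.09 (adjusted p = 0.072). AL162411.1, 83 bases from the glycine cleavage enzyme gene GLDC, fell from 3.30, 3.36 and 4.10 FPKM to 1.81, 1.31 and 1.32 FPKM (-1.23 ± 0.16, adjusted p = 0.0017, 0.012 by voom on the reads), and GLDC had -0.21 ± 0.10 (adjusted p = 0.16). None of these 3 lincRNA genes showed overlap between its groups. As a description of pairs chosen because only the lincRNA passed, the log2 ratio of lincRNA to neighbor differed by 0.81 (SCAMP1), 0.74 (PFKP), -0.78 (BAIAP2), -0.41 (NUP50) and -1.02 (GLDC).

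**Figure D4:**
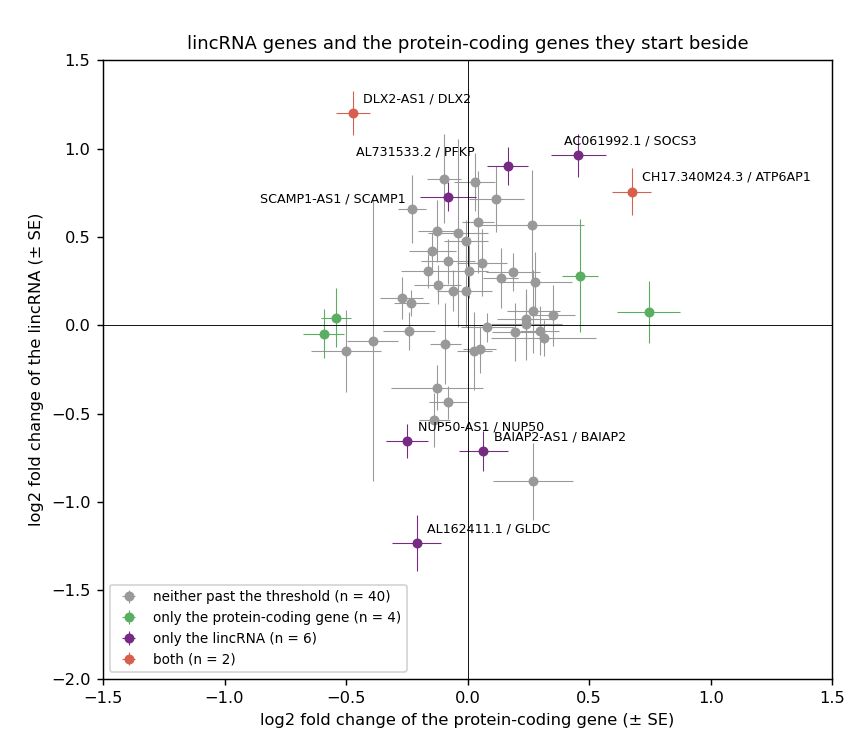
Log2 fold change (± SE of the limma fit) of 52 head-to-head lincRNA genes (vertical axis) against that of the protein-coding gene within 1 kb (horizontal axis). Orange points mark the 2 pairs in which both genes passed an adjusted p of 0.01, purple the 6 in which only the lincRNA did, green the 4 in which only the protein-coding gene did and gray the other 40. DLX2-AS1 and DLX2 lie in opposite directions at 1.20 and -0.47.

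Overlapping genes call for care, because the sources used here state a strand-specific library but not whether the counting used strand. Of the lincRNA genes past the threshold, 3 overlap a tested protein-coding gene on the opposite strand. In the 2 pairs given here, SOX21-AS1 fell while SOX21, at 84.4 FPKM a far more abundant gene, had -0.11 ± 0.06 (adjusted p = 0.22), and EPB41L4A-AS1 rose while EPB41L4A had 0.16 ± 0.17 (adjusted p = 0.54). The difference within a pair was not tested. AL035461.2 overlaps an unnamed protein-coding gene on the same strand, and reads of that gene cannot be told apart from its own.

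Some of the lincRNA genes lie close to each other. 19 of them form 9 groups within 50 kb. On chr17, AC005332.9 fell (log2 fold change -0.60), AC005332.6 further along the same strand read -0.74 ± 0.27 (adjusted p = 0.084), and AC005332.8 read -0.01. On chr9, AL512625.1 fell (-0.61) while AL512625.3 on the other strand read 0.07 (adjusted p = 0.66). Beside LINC00511, AC007639.1 had 1.08 ± 0.30 on few reads (adjusted p = 0.035). No difference within a group was tested. The other groups gave values near each other, as for RAB30-AS1 (0.04) and AP001767.3 (0.10) on chr11 and for AC004542.2 (0.21) and AC004542.1 (0.08) on chr22, as well as values further apart, as for LINC00461 (-0.16) and AC008525.1 (-0.64) on chr5 and for AC018645.2 (0.05) and AC018645.3 (-0.49) on chr7. Reads that overlap may be shared.

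A lincRNA at the ribosomal RNA repeats was singled out after its values were seen. FP236383.3 on chr21 read 5.64, 6.17 and 9.04 FPKM in siC and 12.1, 16.8 and 23.0 FPKM in siMSI1. The groups did not overlap, but the spread within each was wide (log2 fold change 1.28 ± 0.27, adjusted p = 0.017). This region exists in many copies, so the placement of its reads is uncertain. FP236383.1, at the same repeats, read 3.79, 2.92 and 3.03 FPKM in siC and 2.82, 2.93 and 3.35 FPKM in siMSI1, and its groups overlapped (-0.09 ± 0.13, adjusted p = 0.66).

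10 of the 189 hold an annotated small RNA within their span despite the exclusion by symbol, among them LINC00461 (MIR9-2), MEG3, NEAT1, LINC02001 and AC020916.1, which GENCODE 44 names MIR23AHG. 2 of the 10 passed the test, beside 11.0% of all tested genes, LINC02001 (lower) and EPB41L4A-AS1 (higher, with SNORA13). AC020916.1 stood at 0.65 ± 0.15 on the log2 scale (adjusted p = 0.019).

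The letters GTAGT and ATAGT, the core that MSI1 is known to bind (read as RNA with U for T), were counted on the sense strand of the GENCODE 44 transcripts. Pooled over the transcripts there were 1.35 per kb in the 15 lincRNA genes that fell, 1.04 per kb in the 15 that rose and 1.33 per kb in the 146 that did not pass, beside 1.31 per kb over the 176 and 1.12 per kb over all lncRNA transcripts. The medians over transcripts had another order, with 0.74 per kb in the genes that fell, 0.65 in those that rose and 0.95 in those that did not pass. The differences carry no test.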

How the data were processed

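Per the labels and the study's methods, the authors clipped the reads with Cutadapt 1.14, aligned them to GRCh38 with HISAT2 2.1.0 and SAMtools 1.5, counted them over Ensembl genes with featureCounts 1.5.3 and deposited FPKM per gene and library. The deposited table also holds the authors' log2 fold changes, p-values and false discovery rates (edgeR 3.18.1), which were not used. FPKM times gene length gave whole reads for 100% of values (tolerance 0.02).

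The lincRNA genes and the gene lists were chosen with earlier results of these data known. limma 3.58.1 (R 4.3.3) was fitted to log2(FPKM + 0.1) of 15069 genes (mean of at least 0.5 FPKM, lmFit and eBayes with trend and robust, Benjamini-Hochberg over all, threshold 0.01) and tested on simulated data. The genes named are MSI1, the 12 that fell most and the 12 that rose most among those past the threshold without overlap of the groups, the 5 most abundant, those next to the mean of 2 FPKM, members of the lists, and their neighbors. Outside this rule and after their values were seen, the other 6 genes past the threshold (AC005332.9, SOX21-AS1, LINC00839, LINC02134, AL512625.1 and OLMALINC), genes close to other lincRNA genes, hosts of small RNAs, genes at the ribosomal RNA repeats and those under other observations were also named. Positions and transcripts came from GENCODE 44 (GRCh38) and start regions from RefSeq (GRCh38.p14). Alternatives were other added values, filters, normalizations and variance models, a replicate block, voom on recovered reads, other thresholds and leaving out each library. Python 3.11.15, pandas 2.3.3 and SciPy 1.17.1 were used for the rest. The siRNA sequences were not used here. The values of some genes beside or overlapping lincRNA genes are not reported here.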

Additional observations from a re-analysis of the deposited data

How the results depend on the processing

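Every one of the 30 calls kept its sign in all 15 alternative fits, and 11 kept their call in all of them: AL161431.1, AL353747.4, LINC01224, AP003774.1, AL445434.1, DLX2-AS1, LINC01508, AP000808.1, AC061992.1, SCAMP1-AS1 and LINC00839. The count of 30 moved to 17 without a filter on low genes (7 lower and 10 higher, 792 genes of the table past the threshold, against 1655), to 18 with limma without trend and robust (6 lower and 12 higher, 847 genes), to 58 at an adjusted p of 0.05 (3787 genes), to 13 with 2-fold in addition (294 genes), to 17 among the 71 lincRNA genes of at least 5 FPKM (23.9%) and, in an alternative chosen after seeing the data, to 19 among the 87 with at least 100 reads per library. limma voom on the recovered reads called 2684 genes of the table, with 35 of the lincRNA genes. Leaving out each library in turn gave 15 to 30 lincRNA genes and 528 to 1603 genes, fewest without siC 1, with 7 lower and 13 higher lincRNA genes without siC 2, 8 and 13 without siMSI1 1, 12 and 11 without siMSI1 2 and 14 and 16 without siMSI1 3, and a median log2 fold change of the lincRNA genes from 0.0099 to 0.0903. Over the 119 lincRNA genes with a GENCODE 44 position that overlap no protein-coding gene the median was -0.0103, against 0.0216 over all 176 with a position. The cause of these shifts was not tested. Same-numbered siC and siMSI1 libraries deviated together with correlations of only -0.07, 0.08 and 0.08. On the second principal component, however, both groups had the same order by replicate number. Whether the numbers pair the libraries is therefore not settled, and the main fit did not use them. The replicate block called 40 of the lincRNA genes and 2250 genes. Depth limits the genes of few reads: 3 reads on a gene of 2 kb are 0.083 to 0.114 FPKM, a floor that covers counting error only.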

Other observations

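A few lincRNA genes beside known regulators missed the adjusted p of 0.01 in the limma fit with values from 0.011 to 0.022, and were picked here after their values were seen. CAHM, which starts 40 bases from the RNA-binding protein gene QKI, read 4.77, 5.37 and 4.27 FPKM in siC and 6.89, 10.8 and 8.16 FPKM in siMSI1, with no overlap between the groups (log2 fold change 0.81 ± 0.17, adjusted p = 0.011). QKI stood at 0.03 ± 0.08 (adjusted p = 0.84). PAXIP1-AS1, 297 bases from the DNA damage response gene PAXIP1, read 14.5, 14.6 and 16.8 FPKM in siC and 10.3, 11.6 and 12.01 FPKM in siMSI1, again without overlap (-0.44 ± 0.09, adjusted p = 0.012). AP002360.2, listed as EMSY-DT, read 12.8, 15.8 and 13.9 FPKM in siC and 19.3, 22.8 and 17.4 FPKM in siMSI1 (0.48 ± 0.12, adjusted p = 0.022), while EMSY stood at -0.01 ± 0.09 (adjusted p = 0.97). The groups of EMSY-DT did not overlap either.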
